A study of Mus musculus with 28 samples.

Results

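The interval between 2 h and 4 h of lipopolysaccharide (LPS) was compared in RNA from mouse bone marrow-derived dendritic cells, with 2 libraries at 2 h and 2 at 4 h out of 28 samples in the series. All 4 libraries were taken by their labelled stimulus and time, and all 3147 genes of the deposited RNA table entered the comparison. The cells were grown from the marrow of female C57BL/6J mice aged 6 to 8 weeks in GM-CSF at 20 ng/ml and were stimulated at day 9 with ultrapure LPS from rough E. coli K12 at 100 ng/ml. Mock cultures received no LPS. In every group the medium was exchanged at the start for protein labelling. The remaining RNA libraries, 2 per group, covered 0 h, the other LPS times (1, 6, 9 and 12 h) and mock at the same 6 times. Values are in TPM, the length-scaled share of transcripts, over the listed genes, so each library sums to 1000000, and every level is a share of the listed RNA. Whether the 2 libraries of a group stem from separate cultures is not in the labels, and the p-values reflect only how far these libraries spread, which can be technical.

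LPS, from the outer membrane of Gram-negative bacteria, is sensed at the cell surface by Tlr4. Early targets, among them cytokines, are switched on through NF-kB. Another branch from the endosome activates Irf3 and leads to release of interferon beta, which then acts back on the cells through its receptor and a complex of transcription factors that includes Stat2 and Irf9. That complex binds the interferon-stimulated response element, and its targets, which encode antiviral proteins, GTPases and antigen presentation factors, follow the early wave. Maturing dendritic cells also reduce antigen uptake and remodel their actin cytoskeleton.

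Of 3147 genes, 99 rose (3.15%) and 228 fell (7.24%) between 2 h and 4 h of LPS, by limma on log2(TPM + 1) at a Benjamini-Hochberg adjusted p under 0.05. The rises held 18 genes of the type I interferon response, 3 interferon-inducible GTPases and 6 genes of MHC class I presentation. The falls held 9 genes of DNA replication and mitosis and 9 actin regulators, and their largest members included the signalling adaptor gene Dok2 and the actin regulator gene Eps8. The median gene that rose went from 94.8 TPM at 2 h to 190 TPM at 4 h, and the median gene that fell from 52.9 to 21.6 TPM. Among the rises, 59 were larger than 2-fold on this scale and 7 larger than 4-fold. Among the falls, 140 were larger than 2-fold and 7 larger than 4-fold. In bulk RNA, fewer cells of a type and less RNA per cell cannot be told apart.

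The split between rises and falls depended on how libraries were scaled to each other. The median over all genes was −0.22 on the log2 scale, in libraries whose total is fixed. The 99 genes that rose summed to 29446 and 28145 TPM at 2 h and to 63351 and 67864 TPM at 4 h. With libraries rescaled by the median ratio of their genes the median was 0.02, and 150 genes rose (4.77%) and 113 fell (3.59%). With quantile normalization 115 rose (3.65%) and 81 fell (2.57%). Of the 99 rises, 89 were called under all 3 scalings, and of the 228 falls, 73. Leaving out 1 of the 4 libraries left 32 to 65 rises and 85 to 165 falls, and 27 rises and 56 falls were called whichever library was left out.

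**Figure D1:**
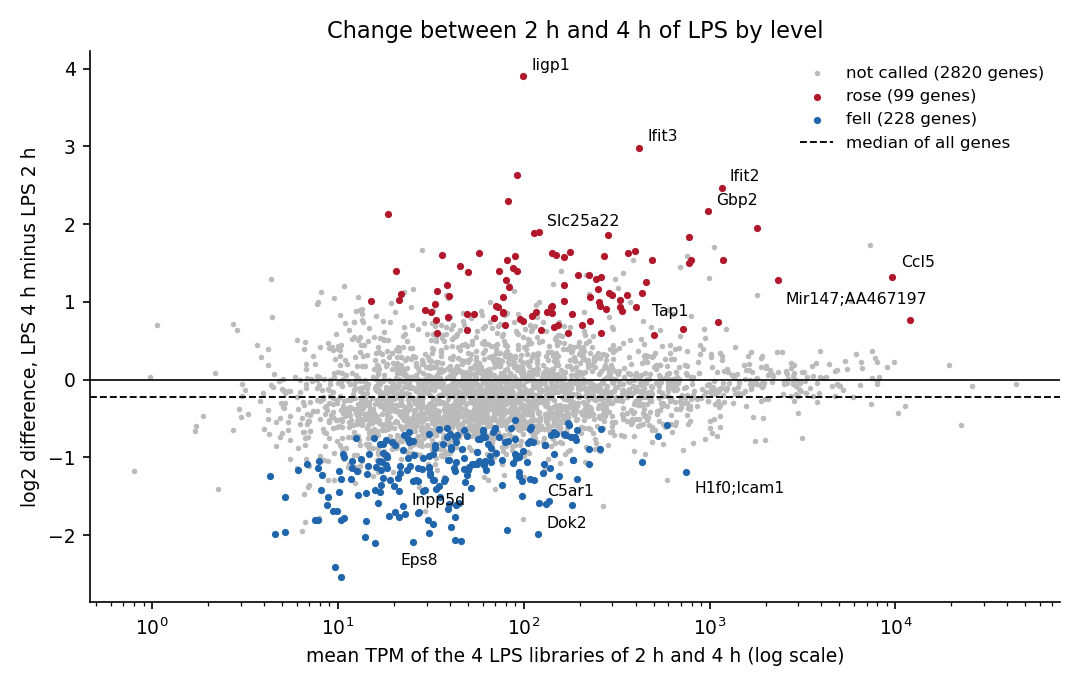
Log2 difference between 4 h and 2 h of LPS (vertical axis) against the mean TPM of the 4 libraries (horizontal axis, log scale), with 1 point per gene. Red points mark the 99 genes that rose, blue points the 228 that fell and grey points the 2820 not called. The dashed line is the median of all genes at −0.22, and the largest rise is that of Iigp1 at 3.91.

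The same interval without LPS gave no call. Between mock 2 h and mock 4 h limma called 0 genes in either direction (0%), with 11 higher and 2 lower at an unadjusted p under 0.05. Median-ratio rescaling and quantile normalization also called 0 genes there, with 7 higher and 5 lower and 7 higher and 9 lower at an unadjusted p under 0.05. The difference between the LPS step and the mock step was tested directly. With median-ratio rescaling it was higher for 57 genes and lower for 34, and with quantile normalization for 34 and 16. On TPM it was higher for 30 genes (0.953%) and lower for 71 (2.26%), among them 30 of the 99 rises and 69 of the 228 falls. Leaving out 1 of the 8 libraries gave 11 to 29 genes higher and 22 to 52 lower.

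Set among the consecutive LPS steps, the step from 2 h to 4 h had the most calls in all under each of the 3 scalings, 327 on TPM, 263 with median-ratio rescaling and 196 with quantile normalization. The step was chosen because most falls appear in it, so its rank among the steps is a description. From 0 h to 1 h 85 genes rose (2.7%) and 28 fell (0.89%), and from 1 h to 2 h 70 rose (2.22%) and 88 fell (2.8%). From 4 h to 6 h 2 genes were higher (0.0636%) and 9 lower (0.286%). From 6 h to 9 h 8 were higher and 0 lower, and from 9 h to 12 h 6 were higher and 0 lower, with 124 and 76 lower at an unadjusted p under 0.05. These intervals differ in length, and neighbouring steps share libraries, so their counts were not tested against each other.

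**Figure D2:**
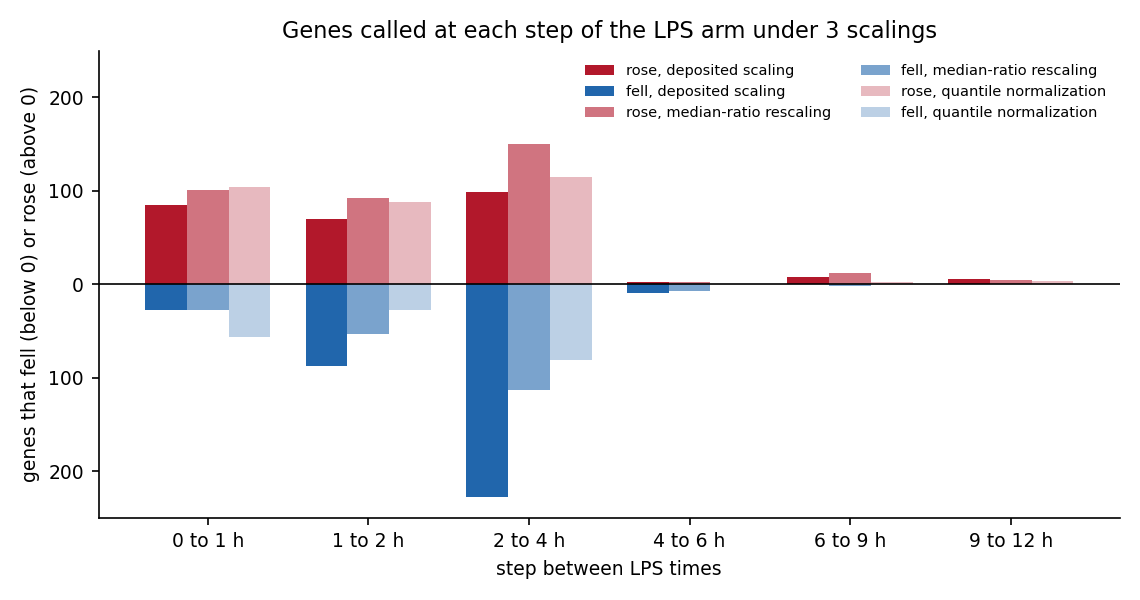
Number of genes higher (bars above 0) and lower (bars below 0) at each of the 6 consecutive LPS steps, by limma at an adjusted p under 0.05, for the deposited TPM, median-ratio rescaling and quantile normalization. The 2 h to 4 h step has the tallest bars on TPM, 99 above and 228 below 0.

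Of 35 measured genes of the type I interferon response, 18 rose and 0 fell, with a median log2 difference of 1.25 against −0.22 over all genes. Median-ratio rescaling called 23 of them and quantile normalization 15. Leaving out 1 library called 7 to 13. Summed over the list, transcripts made up 16692 and 17010 TPM at 2 h and 38514 and 47913 TPM at 4 h of LPS, against 1910 and 1970 TPM at 4 h of mock. Ifit2, an antiviral protein that binds foreign RNA, stood at 404 and 307 TPM at 2 h and 1758 and 2174 TPM at 4 h (log2 difference 2.47 ± 0.33, SE, adjusted p = 0.00023). At 0 h it had been at 3.99 and 2.36 TPM, so it was already induced at 2 h. Its groups at 2 h and 4 h did not overlap, as was required for naming it. Oas3, an enzyme that makes the 2-5A activator of RNase L, went from 52 and 43 TPM to 198 and 160 TPM (1.89 ± 0.28, adjusted p = 0.00041), and its mock libraries of 4 h were at 16 and 15.4 TPM.

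Several members rose by a call that was lost when 1 library was left out. Ifit3, a partner of Ifit2, went from 113 and 76.6 TPM to 715 and 772 TPM (2.98 ± 0.67, adjusted p = 0.0089). Without replicate 2 of 4 h its adjusted p was 0.0762, without replicate 2 of 2 h 0.0908, and with a pseudocount of 0.1 it was 0.115. Cmpk2, a mitochondrial nucleotide kinase, went from 809 and 670 TPM to 2748 and 2943 TPM (1.95 ± 0.48, adjusted p = 0.015), and the call was lost without any 1 of the 4 libraries, at an adjusted p of 0.0556 to 0.115. The tetherin gene Bst2, whose product holds budding virus at the cell surface, went from 574 and 624 TPM to 1499 and 2019 TPM (1.54 ± 0.34, adjusted p = 0.0077). Without replicate 2 of 4 h its adjusted p was 0.101, and without replicate 1 and replicate 2 of 2 h it was 0.0571 and 0.0512. Uba7, the activating enzyme for the ubiquitin-like Isg15, shares its row of the table with 2 other names and went from 156 and 114 TPM to 352 and 464 TPM (1.59 ± 0.33, adjusted p = 0.0047). Its adjusted p was 0.0721 without replicate 2 of 4 h and 0.0735 without replicate 2 of 2 h.

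Calls for the abundant interferon transcripts Rsad2 and Isg15 depended on the setting. Rsad2, which encodes the antiviral enzyme viperin, stood at 3314 and 3370 TPM at 2 h and 9798 and 12641 TPM at 4 h (1.74 ± 0.55, adjusted p = 0.052, and 0.0375 with median-ratio rescaling). Isg15 stood at 3424 and 4185 TPM and then at 6589 and 8843 TPM (1.01 ± 0.33, adjusted p = 0.061, and 0.0318 with median-ratio rescaling). The groups of each gene did not overlap. Stat2, a transducer of the interferon receptor, had reached 417 and 469 TPM by 2 h, from 46 and 60.6 TPM at 1 h, and stood at 491 and 594 TPM at 4 h (0.29 ± 0.24, adjusted p = 0.56). Stat3, which transmits signals of Il10 and Il6, rose from 103 and 88.3 TPM to 169 and 198 TPM (0.94 ± 0.20, adjusted p = 0.0055), and its adjusted p was 0.0787 without replicate 2 of 4 h and 0.0744 without replicate 2 of 2 h.

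Of 8 interferon-inducible GTPases, which attack the vacuoles of intracellular pathogens, 3 rose and 0 fell (median log2 difference 1.27), and 3 rose whichever library was left out. Iigp1 had the largest rise of the genes named here. It stood at 9.93 and 12.2 TPM at 2 h and 132 and 244 TPM at 4 h (3.91 ± 0.56, adjusted p = 0.0003), and at 0.535 and 1.59 TPM in mock at 4 h. Gbp2, a guanylate-binding protein, went from 421 and 298 TPM to 1469 and 1735 TPM (2.17 ± 0.26, adjusted p = 8.4e-05). Its family member Gbp3 went from 210 and 172 TPM to 517 and 692 TPM (1.65 ± 0.28, adjusted p = 0.00099). The mock levels of both lay within 32.4 to 128 TPM at 2 h and 4 h. These are members of multigene families. The levels were computed with RSEM, and how well it split reads shared by near-identical copies was not checked here.

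In the list of MHC class I presentation and immunoproteasome genes, 6 of 13 rose and 0 fell, with a median log2 difference of 0.66. They were Tap1, Psmb10, Tap2, Psmb9, Tapbp and Psme1. Median-ratio rescaling called 7 and quantile normalization 5, and 2 or 3 were called when 1 library was left out. Tap1, a subunit of the peptide pump into the endoplasmic reticulum, went from 298 and 250 TPM to 623 and 560 TPM (1.11 ± 0.15, adjusted p = 0.00023). Psmb10, a catalytic subunit of the immunoproteasome, went from 210 and 248 TPM to 457 and 517 TPM (1.09 ± 0.18, adjusted p = 0.00081). Neither gene's groups overlapped, as was required for naming them. Psmb10 at 2 h was still within the range of its mock libraries of 2 h and 4 h, 186 to 253 TPM. The B2m row, for the light chain of class I molecules, stood at 6609 and 5425 TPM at 2 h and 7637 and 6486 TPM at 4 h (0.23 ± 0.16, adjusted p = 0.44). None of 31 constitutive proteasome genes was called (median −0.03).

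The promoters of the called genes were read for the interferon-stimulated response element. It was searched as GAAA, any 2 bases and GAAA again, on either strand, in the 300 bases from 250 before to 50 after each RefSeq gene start (GRCm38.p6). It lay in 17 of the 81 matched promoters of genes that rose (21%), 4 of 190 of genes that fell (2.11%), 123 of 2596 over all genes (4.74%) and 1131 of 32851 promoters of the whole reference table (3.44%). Among 63 matched genes that rose and were on neither interferon list, 9 held it (14.3%). They included Slc25a22, and also Psme1 of the MHC class I list. An NF-kB site was found in 13.6% of the promoters of genes that rose, 11.6% of those that fell and 12.2% over all genes. It was in 22.9% of 83 promoters of genes already higher in LPS than in mock at 1 h. The interferon-stimulated response element lay in 11 of these 83 (13.3%). These shares are descriptions of letters in a fixed window, with no test and no measure of binding.

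The stretches of 120 bases that hold the element in 4 interferon targets and in Slc25a22 are shown because these genes had rises of 1.65 to 2.98 on the log2 scale and carry the element at different distances from their start. Each reads 5′ to 3′ on the strand of the gene, with the matches in capitals, from RefSeq on GRCm38.p6. They lie upstream of the gene, at chr19:34583352-34583471 on the plus strand for Ifit3, chr3:142620543-142620662 on the plus strand for Gbp2 and chr3:142559924-142560043 on the plus strand for Gbp3. The stretch of Oas3 lies at chr5:120777670-120777789 and that of Slc25a22 at chr7:141435390-141435509, each on the minus strand.
Ifit3: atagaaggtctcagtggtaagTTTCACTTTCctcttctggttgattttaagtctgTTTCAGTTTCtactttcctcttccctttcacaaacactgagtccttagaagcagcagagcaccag
Gbp2: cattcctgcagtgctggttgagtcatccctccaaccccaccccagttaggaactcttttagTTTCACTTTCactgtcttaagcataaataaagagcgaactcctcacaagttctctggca
Gbp3: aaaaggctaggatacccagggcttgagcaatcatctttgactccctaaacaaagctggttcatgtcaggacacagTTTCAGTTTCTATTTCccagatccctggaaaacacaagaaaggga
Oas3: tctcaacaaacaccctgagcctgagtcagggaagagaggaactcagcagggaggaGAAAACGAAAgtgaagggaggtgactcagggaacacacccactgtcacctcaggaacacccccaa
Slc25a22: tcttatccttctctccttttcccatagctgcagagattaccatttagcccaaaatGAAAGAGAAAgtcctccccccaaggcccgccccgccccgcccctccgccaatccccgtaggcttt
Ifit3 holds 2 separate matches, the nearer starting 122 bases before the gene start, and Gbp3 holds 2 that overlap, the nearer 39 bases before it. Gbp2, Oas3 and Slc25a22 hold 1 each, at 59, 75 and 79 bases. TTTC, 2 bases and TTTC in capitals is the element read from the other strand.

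Rises were not limited to the interferon lists. Of the 99 genes that rose, 21 were on them and 78 were not. The 78 include the 6 risen genes of MHC class I presentation, so a gene off these hand-written lists can still be an interferon target. Kynu, kynureninase of tryptophan breakdown, stood at 26.7 and 27 TPM at 2 h and 121 and 154 TPM at 4 h (2.30 ± 0.36, adjusted p = 0.00068). Slc25a22, a mitochondrial glutamate carrier, went from 54 and 46.5 TPM to 189 and 190 TPM (1.90 ± 0.21, adjusted p = 4.4e-05). The unnamed gene 1600014C10Rik went from 34.4 and 17.5 TPM to 154 and 161 TPM (2.63 ± 0.26, adjusted p = 1.7e-05), and its level at 2 h was below its mock level of 34.6 to 50.3 TPM at 2 h and 4 h. Rgs14, a regulator of G protein signalling, showed the same order, from 29.1 and 26 TPM at 2 h to 76.9 and 98.8 TPM at 4 h (1.63 ± 0.24, adjusted p = 0.00041), with mock between 40.2 and 49 TPM. At 1 h of LPS, 1600014C10Rik, Rgs14 and the Rab GTPase-activating protein gene Tbc1d13 were called lower than mock, so each stood low before it rose. Tbc1d13 went from 148 and 107 TPM at 2 h to 294 and 351 TPM at 4 h (1.34 ± 0.22, adjusted p = 0.00077).

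Of 18 genes for caspases and cell death, 3 rose and 0 fell (Mlkl, Bid and Casp1), against 3.15% and 7.24% over all genes. Mlkl, the pore-forming executor of necroptosis, went from 41.5 and 51.1 TPM to 109 and 148 TPM (1.44 ± 0.24, adjusted p = 0.00088), with mock libraries of 2 h and 4 h at 29.2 to 44.3 TPM. The formin row of Fmnl2 went from 24.7 and 22.5 TPM to 58.7 and 75.3 TPM (1.46 ± 0.20, adjusted p = 0.00026) and was the 1 rise among 55 actin regulators. Prpf38a was the 1 rise among 65 spliceosome genes, from 57.2 and 33.7 TPM to 128 and 142 TPM (1.60 ± 0.26, adjusted p = 0.00089). Of 55 genes of ubiquitin conjugation and removal, 6 rose and 2 fell, against the same 3.15% and 7.24%. The 6 included Trim30a, Uba7 and Ube2l6, which also stood on the interferon list.

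Cd40, the costimulatory receptor for T cell help, went from 503 and 315 TPM to 1265 and 1009 TPM (1.5 ± 0.42, adjusted p = 0.031). Its adjusted p was 0.149 and 0.101 without replicate 1 and replicate 2 of 4 h, 0.254 without replicate 2 of 2 h and 0.0647 with a pseudocount of 0.1. The chemokine gene Ccl5 went from 6026 and 4983 TPM to 15359 and 12208 TPM (1.32 ± 0.40, adjusted p = 0.042), and lost its call without any 1 of the 4 libraries (adjusted p 0.111 to 0.225) and with quantile normalization (0.0681). It was the 1 rise among 5 cytokines and chemokines. Il1b, interleukin 1 beta, stood at 9512 and 6569 TPM at 2 h and 9217 and 6639 TPM at 4 h (−0.02 ± 0.60, adjusted p = 0.99). Irg1, the itaconate-making enzyme, stood at 4767 and 3397 TPM and then at 5361 and 3976 TPM (0.20 ± 0.45, adjusted p = 0.86). Il1b had been at 142 and 83.7 TPM at 0 h and Irg1 at 54.5 and 33.9 TPM, so each was induced before 2 h, and their groups at 2 h and 4 h overlapped. The row named Mir147;AA467197, which joins a microRNA with its host transcript and gives no level of the mature microRNA, went from 8447 and 9296 TPM to 13967 and 16225 TPM (0.76 ± 0.20, adjusted p = 0.024). Its adjusted p was 0.168 with quantile normalization, 0.208 without replicate 2 of 4 h, and 0.147 and 0.0874 without replicate 1 and replicate 2 of 2 h.

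Commd5 showed a dip at 2 h. It stood at 34.4 and 45.7 TPM at 0 h, 13.7 and 2.1 TPM at 2 h of LPS and 36 and 22.5 TPM at 4 h (2.13 ± 0.47, adjusted p = 0.0074). The size rested on the low library of 2 h: the difference was 1.01 without it (adjusted p = 0.101) and 3.25 without the other library of 2 h. Without replicate 1 of 4 h the adjusted p was 0.0722.

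The largest falls named by the rule were in genes of different roles. Lbr, the lamin B receptor of the inner nuclear membrane, had the largest and went from 25.4 and 26.8 TPM at 2 h to 8.06 and 3.38 TPM at 4 h (−2.10 ± 0.48, adjusted p = 0.0097). That call was lost at 0.152 without replicate 2 of 4 h and at 0.0526 and 0.0744 without replicate 1 and replicate 2 of 2 h. Rap2b, a Ras-related GTPase, went from 70.9 and 191 TPM to 22.2 and 39.6 TPM (−1.94 ± 0.48, adjusted p = 0.015, 0.132 without replicate 1 of 4 h, 0.225 without replicate 2 of 2 h and 0.0606 with quantile normalization). Plcb2, a phospholipase C activated by G proteins, went from 64.3 and 69.2 TPM to 17.9 and 20 TPM (−1.76 ± 0.51, adjusted p = 0.036), a call lost without any 1 of the 4 libraries (0.131 to 0.171) and with median-ratio rescaling (0.0922).

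Dok2, an adaptor that restrains Ras signalling below tyrosine kinase receptors, stood at 180 and 203 TPM at 2 h and 47.1 and 47.8 TPM at 4 h (−1.99 ± 0.19, adjusted p = 1.1e-05). In mock at 4 h it was at 491 and 458 TPM. The row of Inpp5d, the inositol phosphatase Ship1 that counters PI3-kinase, went from 32.3 and 34.9 TPM to 8.51 and 9.87 TPM (−1.77 ± 0.16, adjusted p = 1.1e-05), against 96.6 and 86.3 TPM in mock at 4 h. Both genes had fallen below their 0 h level by 2 h and fell again to 4 h.

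Eps8, an actin-capping protein and receptor tyrosine kinase substrate, went from 41.7 and 42 TPM to 9.59 and 8.59 TPM (−2.09 ± 0.25, adjusted p = 9.1e-05). Iqsec1, an exchange factor for Arf GTPases, went from 66.1 and 72.4 TPM at 2 h to 21.5 and 11.5 TPM at 4 h (−2.06 ± 0.27, adjusted p = 0.00015). Unlike Dok2 it stood above its 0 h level of 38.9 and 38.2 TPM at 2 h and below it at 4 h. Add3, a subunit of adducin in the membrane skeleton, went from 39.7 and 60.5 TPM to 10.8 and 12.9 TPM (−1.97 ± 0.24, adjusted p = 9.1e-05). Unc119, a carrier of lipid-modified proteins, went from 66.4 and 61.9 TPM to 22.6 and 12.1 TPM (−1.89 ± 0.28, adjusted p = 0.0004). Cerk, ceramide kinase, went from 43.5 and 52.9 TPM to 12.1 and 14 TPM (−1.80 ± 0.21, adjusted p = 8.4e-05), and the kinesin light chain gene Klc4 from 26.2 and 32.9 TPM to 7.33 and 8.76 TPM (−1.75 ± 0.21, adjusted p = 8.4e-05). The unnamed gene 1300001I01Rik went from 51.8 and 50.5 TPM to 13.7 and 13.3 TPM (−1.85 ± 0.18, adjusted p = 1.1e-05). The libraries of 4 h lay below those of 2 h for each of these genes, as was required for naming them. Their calls held under every scaling and with any 1 of the 4 libraries left out. In a fit to the 4 libraries alone Eps8 and 1300001I01Rik kept the call, and the adjusted p was 0.0516 for Add3 and Cerk, 0.054 for Iqsec1, 0.0636 for Klc4 and 0.0701 for Unc119.

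The endosomal adaptor Appl2 fell from 17.7 and 28.7 TPM to 4.01 and 5.77 TPM (−2.02 ± 0.39, adjusted p = 0.0032). The row of Acap1, an Arf GTPase-activating protein, fell from 55.8 and 95.6 TPM to 18.3 and 15 TPM (−2.08 ± 0.39, adjusted p = 0.0023). Without replicate 2 of 2 h, the higher library in each case, the adjusted p was 0.0597 for Appl2 and 0.054 for Acap1.

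Of 21 genes of DNA replication and mitosis, 1 rose and 9 fell, with a median log2 difference of −0.82, the lowest among the lists with at least 11 measured genes. The falls were Mcm2, Mcm3, Mcm4, Mcm6 and Mcm7 of the replicative helicase, Fen1, Cdk1, Ncaph and Tubb5. Median-ratio rescaling called 6 lower, quantile normalization 4, and 4 to 6 were called when 1 library was left out. Mcm2 went from 20.1 and 25.1 TPM to 4.5 and 7.05 TPM (−1.82 ± 0.23, adjusted p = 0.00011), against 41.7 and 34.4 TPM in mock at 4 h. Mcm4 went from 39.3 and 29.9 TPM to 11.4 and 9.45 TPM (−1.63 ± 0.32, adjusted p = 0.0033). The 1 rise was Rfc3, a clamp loader subunit, from 16 and 26.3 TPM to 40.2 and 53.4 TPM (1.14 ± 0.35, adjusted p = 0.047), a call lost without any 1 of the 4 libraries (0.0585 to 0.327).

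Of 27 chromatin regulators 1 rose and 1 fell, and of 11 histones 0 rose and 2 fell, against 3.15% and 7.24% over all genes. The 2 falls among the histones were Hist1h1c and the H1f0;Icam1 row. That row joins a histone with Icam1, cannot be assigned to either, and counts again in the NF-kB list. Dnmt1, the maintenance DNA methyltransferase, went from 22.2 and 27.8 TPM to 9.74 and 9.79 TPM (−1.27 ± 0.19, adjusted p = 0.00037). Hist1h1c, a linker histone, went from 86.5 and 136 TPM to 40.3 and 43.9 TPM (−1.35 ± 0.23, adjusted p = 0.00098) and reached 312 and 259 TPM at 12 h.

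Of 55 actin filament regulators, 1 rose and 9 fell (median −0.27), with 7 lower under median-ratio rescaling, 6 under quantile normalization and 3 to 8 without 1 library. Over all genes 7.24% fell, with a median of −0.22, and 3.59% and 2.57% fell under the 2 other scalings. With median-ratio rescaling the list median was −0.02, against 0.02 over all genes, so the list as a whole stayed near the other genes. The falls were Synpo, Fmnl3, Coro1c, Myo1e, Ezr, Coro1a, Fmnl1, Twf2 and Myo9b. Coro1c, a coronin that binds actin filaments, went from 142 and 164 TPM to 69.5 and 56.1 TPM (−1.28 ± 0.23, adjusted p = 0.002). Its relative Coro1a, the coronin of blood cells, went from 642 and 525 TPM to 320 and 242 TPM (−1.06 ± 0.24, adjusted p = 0.0083) and was at 112 and 108 TPM at 6 h. That call was lost at 0.125 without replicate 2 of 4 h and 0.0911 without replicate 1 of 2 h. Among the formins Fmnl2 rose while Fmnl1 and Fmnl3 fell.

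In RNA processing, ribosome assembly and protein folding the counts are read against the 7.24% of all genes that fell, or 3.59% and 2.57% under the other scalings. Of 24 nucleolar genes of ribosome biogenesis 0 rose and 4 fell (median −0.53), of 65 spliceosome and hnRNP genes 1 rose and 6 fell (−0.32), and of 33 heat shock proteins and chaperonins 0 rose and 5 fell (−0.24). These falls depended on scaling, with 2, 2 and 3 lower under median-ratio rescaling and 1, 2 and 1 under quantile normalization. The spliceosome share is near the background on TPM and below it with median-ratio rescaling, and is no result about these genes. Nolc1, a nucleolar chaperone, went from 31.2 and 40.9 TPM to 9.89 and 10.3 TPM (−1.73 ± 0.35, adjusted p = 0.0041, 0.0551 with quantile normalization and 0.0579 without replicate 2 of 2 h). Prpf19, a ubiquitin ligase of the spliceosome, went from 67.4 and 71 TPM to 25.9 and 37.8 TPM (−1.12 ± 0.20, adjusted p = 0.0016). Dnajc9, a histone co-chaperone, went from 23.8 and 24.2 TPM to 10.9 and 9.44 TPM (−1.16 ± 0.23, adjusted p = 0.0031, and 0.0667 with quantile normalization). Of 22 aminoacyl-tRNA synthetases, 2 rose (Wars and Rars) and 3 fell (Dars, Iars and Tars). Rars went from 105 and 89.4 TPM to 153 and 150 TPM (0.64 ± 0.14, adjusted p = 0.0087, 0.0613 and 0.117 without replicate 2 of 4 h and of 2 h).

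In metabolism, 1 of 23 genes of the TCA cycle list was called. Idh1, the cytosolic isocitrate dehydrogenase that makes NADPH, went from 160 and 164 TPM to 74.2 and 57.9 TPM (−1.29 ± 0.18, adjusted p = 0.00031). Ptgs1, the constitutive cyclooxygenase, went from 64.4 and 75 TPM to 29.1 and 25.5 TPM (−1.32 ± 0.23, adjusted p = 0.0011) and continued to 6.42 and 4.31 TPM at 12 h. It was the 1 fall among 12 genes of eicosanoid and itaconate synthesis. Mrpl12, a subunit of the mitochondrial ribosome, went from 106 and 133 TPM to 53.6 and 58.3 TPM (−1.07 ± 0.19, adjusted p = 0.0017), 1 of 2 falls among 37 such genes. No gene was called among 73 cytosolic ribosomal proteins (median −0.02, and 0.22 with median-ratio rescaling), 56 of oxidative phosphorylation (−0.16), 13 of glycolysis (−0.26), 6 of MHC class II presentation (−0.2) and 6 integrins (−0.21).

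The other lists held few calls against a background of 3.15% risen and 7.24% fallen. Of 56 genes of endosomal sorting 2 rose and 2 fell, of 45 protein phosphatases and MAP kinases 1 rose and 3 fell, and of 44 lysosomal genes 0 rose and 2 fell. Of 42 translation factors 0 rose and 3 fell, of 38 genes of nuclear pores and transport 1 rose and 2 fell, and of 31 SNAREs and coat proteins 1 rose and 0 fell. Of 26 antioxidant genes 0 rose and 1 fell (Gclm), of 21 kinesins and dynein subunits 0 rose and 2 fell, and of 20 Rab GTPases 1 rose (Rab21) and 1 fell (Rab31). Of 16 solute carriers Slc25a22 rose, and its relatives Slc25a13 and Slc25a24 fell. Of 11 genes of cholesterol synthesis 0 rose and 1 fell, and their median was −0.57.

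**Figure D3:**
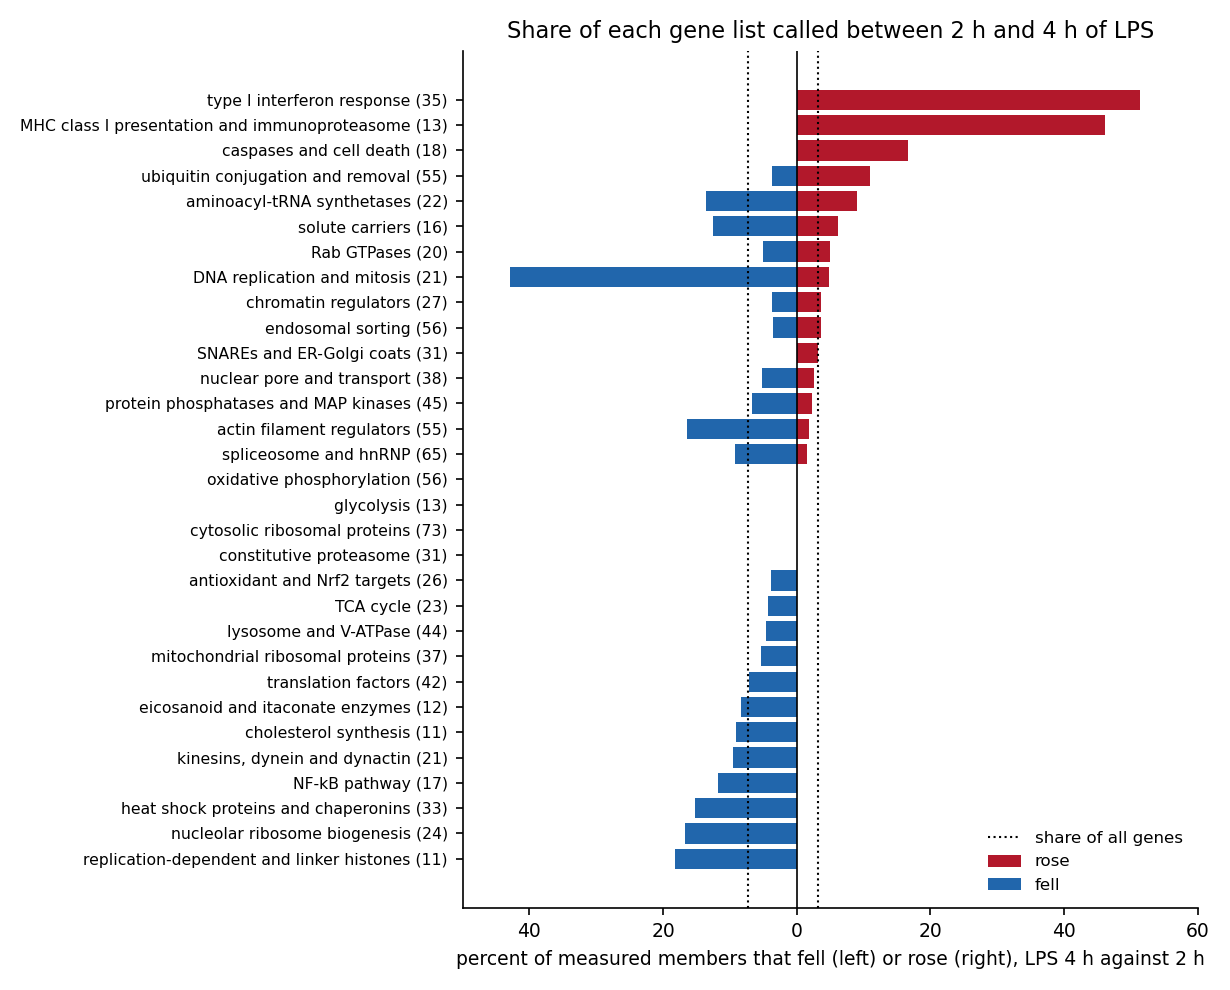
Percentage of measured members that rose (right) and fell (left) between 2 h and 4 h of LPS for gene lists with at least 11 measured members. Dotted lines mark the percentages over all genes, 3.15% risen and 7.24% fallen. The interferon list reaches farthest to the right, with 18 of 35, and DNA replication and mitosis farthest to the left, with 9 of 21.

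Genes induced within the first hour moved both ways in the step. Of 103 genes already higher in LPS than in mock at 1 h (3.27%; 25 were lower, 0.794%), 7 rose and 16 fell between 2 h and 4 h, with a median of −0.03. Over all genes 3.15% rose and 7.24% fell in the step, with a median of −0.22. Median-ratio rescaling called 12 of the 103 higher and 9 lower (4.77% and 3.59% over all genes). Quantile normalization called 6 and 10 of them (3.65% and 2.57% over all genes). The 1 h libraries that sorted these genes do not enter the difference between 2 h and 4 h, but share in the estimate of its spread. The 7 rises were Ifit2, Oas3, Cd40, Ifit1, Srgap2, Fndc3a and Nub1.

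Among the falls, the row named H1f0;Icam1 was the most abundant. It joins a linker histone with the adhesion molecule Icam1, and its values cannot be assigned to either gene alone. It rose from 309 and 330 TPM at 0 h to 1361 and 1303 TPM at 1 h, stood at 1096 and 975 TPM at 2 h and dropped to 452 and 451 TPM at 4 h (−1.19 ± 0.18, adjusted p = 0.0004). C5ar1, the receptor for the complement peptide C5a, went from 28.3 and 29.4 TPM at 0 h to 176 and 147 TPM at 1 h. It stood at 182 and 180 TPM at 2 h and 46.5 and 76.8 TPM at 4 h (−1.58 ± 0.34, adjusted p = 0.0062) and ended at 3.46 and 4.98 TPM at 12 h, below its 0 h level. The call was lost at 0.0766 without replicate 1 of 4 h and 0.0519 without replicate 2 of 2 h. The row of Rab11fip1, an effector of recycling endosomes, went from 205 and 229 TPM at 2 h to 95.4 and 87.3 TPM at 4 h (−1.24 ± 0.17, adjusted p = 0.00024), after 27.4 and 33 TPM at 0 h.

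Ptpn23 and Snx18, which act in endosomal sorting, were also induced at 1 h and fell by 1.09 (SE 0.17, adjusted p = 0.00068) and 1.23 (SE 0.21, adjusted p = 0.001) on the log2 scale. Ptpn23 returned from 68.3 and 74.8 TPM to 34.6 and 31.7 TPM, near its 0 h level of 31 and 29.5 TPM. Snx18 went from 56.1 and 83.5 TPM to 28.9 and 28.4 TPM, below its 0 h level of 53.7 and 62.1 TPM. In the NF-kB pathway list 2 of 17 genes fell and 0 rose: the H1f0;Icam1 row and Relb. Over all genes 7.24% fell and 3.15% rose. Median-ratio rescaling and quantile normalization each called 1 of the 17 lower (3.59% and 2.57% over all genes). So few calls are no result about the pathway. Relb, an NF-kB subunit, stood at 197 and 225 TPM and then at 147 and 132 TPM (−0.59 ± 0.17, adjusted p = 0.032), but its adjusted p was 0.268 with median-ratio rescaling and its call was lost without any 1 of the 4 libraries (0.0658 to 0.229). Irf4, a transcription factor of dendritic cell subsets, went from 147 and 116 TPM to 76.8 and 39.1 TPM (−1.24 ± 0.35, adjusted p = 0.032, and 0.0733 with median-ratio rescaling). Its adjusted p was 0.375 without replicate 2 of 4 h, and 0.19 and 0.0895 without replicate 1 and replicate 2 of 2 h. The inflammasome sensor gene Nlrp3 stood at 475 and 384 TPM and then at 300 and 222 TPM (−0.72 ± 0.23, adjusted p = 0.053, 0.0488 with a pseudocount of 5 and 0.0489 without replicate 1 of 4 h).

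**Figure D4:**
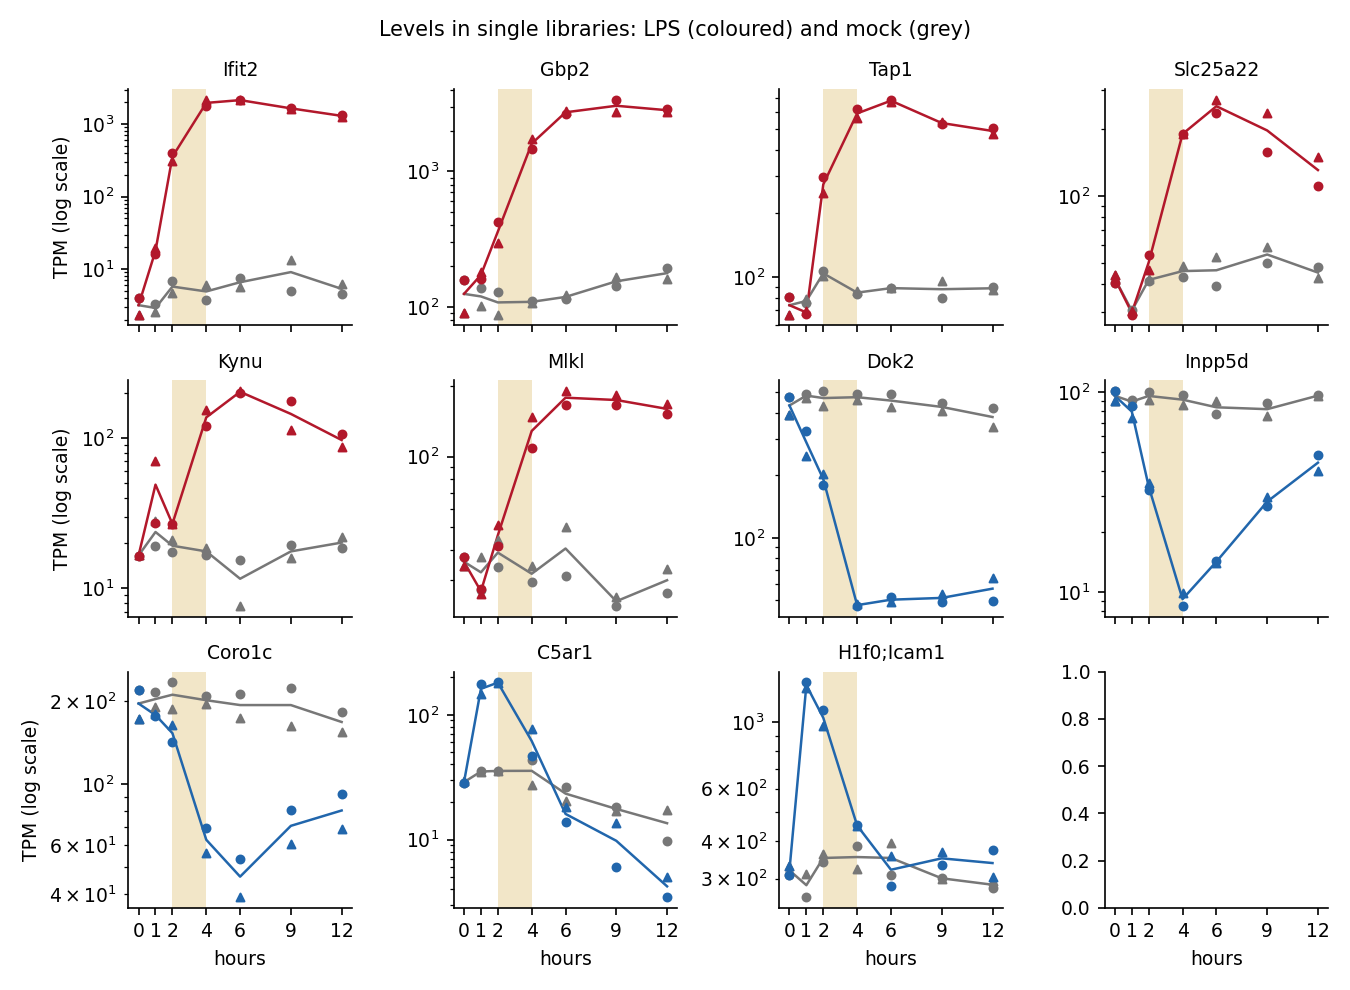
TPM (log axis) against time in hours for single genes, with LPS in colour and mock in grey. Circles are replicate 1, triangles replicate 2, lines join the means, and the shaded band is the 2 h to 4 h interval. Ifit2, Gbp2, Tap1, Slc25a22, Kynu and Mlkl climb through the band, and Dok2, Inpp5d, Coro1c, C5ar1 and the H1f0;Icam1 row drop through it.

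Markers of the labelled cell type and of its neighbours in such cultures were read from fixed lists. Of 14 dendritic cell markers 6 were measured (Cd74, H2-Aa, H2-Ab1, Csf2ra, Fscn1 and Itgax), and none was called. They summed to 21755 and 13157 TPM at 2 h and 20190 and 12426 TPM at 4 h. Of 12 macrophage markers 6 were measured, and 1 rose and 1 fell. Fcgr1, the high-affinity IgG receptor, went from 41.4 and 39.9 TPM to 136 and 107 TPM (1.54 ± 0.41, adjusted p = 0.023), and Mrc1, the mannose receptor, from 266 and 318 TPM to 134 and 181 TPM (−0.90 ± 0.27, adjusted p = 0.047). Each call was lost without any 1 of the 4 libraries, that of Fcgr1 at an adjusted p of 0.0796 to 0.125, and that of Mrc1 at 0.0813 to 0.259, and at 0.222 with median-ratio rescaling. Clec10a, a lectin gene outside these marker lists, went from 159 and 130 TPM to 50.6 and 50.2 TPM (−1.5 ± 0.36, adjusted p = 0.013, and 0.0751 with quantile normalization). Its call was also lost without any 1 of the 4 libraries. Of 16 neutrophil granule markers 7 were measured and none was called, with sums of 8678 and 2622 TPM at 2 h and 4740 and 2252 TPM at 4 h. Replicate 1 held more of these transcripts than replicate 2 at both times. No marker of B cells (of 7 listed), T and NK cells (of 11) or mast cells and basophils (of 7) was among the measured genes, and of 8 erythroid markers only Car2 was measured and was not called. The part of other cell types in the changes was not tested.

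The direction of the step was then read between 1 h and 6 h of LPS, whose libraries do not enter the difference between 2 h and 4 h. They are not independent of its calls, since they share in the spread estimated over all 26 libraries. Between 1 h and 6 h of LPS 285 genes rose (9.06%) and 938 fell (29.8%). Of the 99 genes that rose from 2 h to 4 h, 90 were higher at 6 h than at 1 h and 0 lower. Of the 228 that fell, 216 were lower and 0 higher. With median-ratio rescaling 95 of the 99 were higher (15.8% of all genes were) and 169 of the 228 lower (14.4%). With quantile normalization 95 were higher (13.3%) and 149 lower (12.7%). Tap1 differed by 3.29 (adjusted p = 3.9e-10) and Dok2 by −2.47 (adjusted p = 3.8e-08) between these libraries, while Commd5 differed by 0.18 (adjusted p = 0.79).

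Relative to 0 h, the median of the 99 genes that rose was −0.02 at 1 h, 0.41 at 2 h, 1.61 at 4 h, 2.03 at 6 h and 1.57 at 12 h on the log2 scale. For the 228 that fell it was −0.15, −0.45, −1.56, −1.64 and −1.17 at the same times. In mock all medians lay between −0.18 and 0.05. The values at 2 h and 4 h follow from how the genes were chosen and are given as description.

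**Figure D5:**
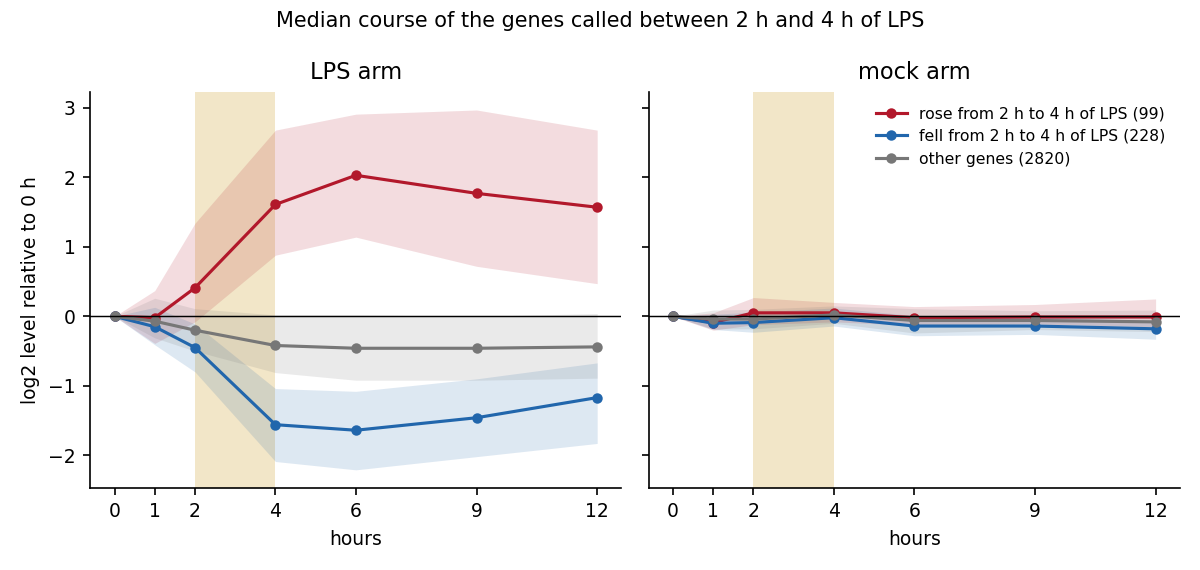
Median log2 level relative to 0 h (lines) with quartiles (bands) against time in hours, for the 99 genes that rose, the 228 that fell and the other 2820 genes, in LPS and in mock. In LPS the rising and falling groups part between 2 h and 4 h, to medians of 1.61 and −1.56, and in mock the medians lie between −0.18 and 0.05.

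From 4 h to 6 h none of the 99 was called, and of the 228, 7 were lower and 1 higher, with 110 genes higher and 137 lower over the table at an unadjusted p under 0.05. No gene of the table was called in this comparison when any 1 library was left out, or with quantile normalization. Between 6 h and 12 h, a comparison added after seeing the data, 148 genes rose (4.7%) and 95 fell (3.02%). Of the 228 that had fallen, 51 were higher at 12 h and 8 lower. Of the 99 that had risen, 20 were lower and 1 higher. Inpp5d rose from 14.3 and 14 TPM at 6 h to 48.5 and 40 TPM at 12 h (1.57 ± 0.16, adjusted p = 2e-05), still below its 0 h level of 101 and 90.1 TPM. Klc4 (2.03 ± 0.21, adjusted p = 2e-05), Cerk (1.95 ± 0.21, adjusted p = 2.8e-05) and Hist1h1c (2.05 ± 0.23, adjusted p = 3.2e-05) also rose again. Slc25a22 came down by a log2 difference of −0.96 (adjusted p = 0.008) and Rgs14 by −1.05 (adjusted p = 0.013). Ptgs1 (−1.42, adjusted p = 0.0011), C5ar1 (−1.71, adjusted p = 0.0043) and Mrc1 (−2.21, adjusted p = 0.00013) went lower still.

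Transcript length and GC content were taken from the longest protein-coding transcript of each gene in GENCODE. Genes that fell had longer transcripts than the others, with a median of 3650 bases, against 2865 for risen genes and 2809 for those not called. Their median GC content was 51.2%, against 50.1% and 49.8%. With trends in length and GC content removed within each library, 92 of the 99 rises and 192 of the 228 falls were called.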

How the data were processed

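RNA was poly(A)-selected, strand-specific and read as paired ends, per the labels' protocols. The authors deposited TPM values, computed with RSEM 1.2.3 after Bowtie 0.12.7 on mm9, per the submitters' processing notes. The deposited table lists 3147 genes, 363 under several joined names, and each library sums to 1000000. TPM holds no read depth, so precision rests on the spread between libraries. Columns of 0 h are repeated under LPS and mock with identical values and were used once. Descriptions of the 4 h samples name hour 5, while titles, time fields and the table say 4, which was used. The 2 footprint libraries were not used here.

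All 26 RNA libraries (13 groups of 2, 13 residual degrees of freedom) entered 1 model in limma 3.58.1 (R 4.3.3) on log2(TPM + 1), a scale that understates changes of weakly expressed genes, with a variance trend. The filter of at least 1 TPM in at least 2 libraries kept all 3147 genes. Tests were two-sided with Benjamini-Hochberg adjustment over all genes and called under 0.05. Lists are described by counts and medians, with no test. Tables and figures used Python 3.11.15, pandas 2.3.3, numpy 2.4.6 and matplotlib 3.10.9.

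The comparison, 40 gene lists and marker lists were chosen with earlier results of these data known. Genes were named by rule. Among called genes whose groups do not overlap and whose higher mean is at least 20 TPM, the rule takes the 15 largest changes and the 6 most abundant each way. It adds, for each list, 2 members each way and the most abundant, then the 6 largest changes each way among genes induced at 1 h, and fixed LPS controls. Of 145 genes named by the rule, not all are printed, some genes and 1 list are not reported here, and list members without values are named only to account for their counts. Alternatives were other pseudocounts (0.1 and 5), filters, scalings, a replicate block, a fit to the compared groups alone, removal of length and GC trends (added later) and leaving out each library in turn. Where that left 1 library in a group, it was assumed to vary like the other groups.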

Additional observations from a re-analysis of the deposited data

Results flagged for a closer look

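Genes are listed here because their LPS step differed from their mock step in the direct test of the difference (limma, adjusted p under 0.05), with values as the log2 difference of LPS minus that of mock. Among genes of the interferon lists this was 4.28 for Iigp1, 2.67 for Ifit2, 2.12 for Gbp2 and 2.1 for Uba7. It was 2.01 for Oas3, 2.01 for Bst2 and 1.72 for Gbp3. Among MHC class I genes it was 1.41 for Tap1 and 1.25 for Psmb10. Among other rises it was 2.66 for 1600014C10Rik, 2.42 for Kynu, 1.78 for Slc25a22, 1.72 for Mlkl, 1.61 for Prpf38a, 1.56 for Fmnl2, 1.38 for Rgs14, 1.17 for Tbc1d13 and 0.88 for Rars.

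Among the signalling and traffic genes that fell, it was −2.4 for Iqsec1, −2.4 for Appl2, −2.3 for Eps8, −2.26 for Acap1, −2.11 for Unc119, −2.01 for Dok2, −1.97 for Klc4, −1.94 for Cerk, −1.88 for Add3, −1.7 for Inpp5d and −1.97 for 1300001I01Rik. Among nuclear and metabolic genes it was −1.83 for Mcm2, −1.39 for Hist1h1c, −1.28 for Idh1, −1.21 for Ptgs1, −1.12 for Prpf19 and −1.04 for Dnmt1. Among genes induced at 1 h it was −1.49 for Ptpn23, −1.37 for Rab11fip1, −1.2 for the H1f0;Icam1 row and −1.12 for Snx18. Ifit3 (3 ± 0.95, adjusted p = 0.1) and C5ar1 (−1.55 ± 0.48, adjusted p = 0.091) missed the threshold in this test.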

How the results depend on the processing

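Of 69 genes printed with values 62 were called, and 37 of these kept their call in every setting but the fit to the 4 compared libraries alone, in which 50 of the 62 lost theirs. Values here are genes higher and lower. Between 2 h and 4 h of LPS, median-ratio rescaling gave 150 and 113, quantile normalization 81 lower, and the 4 libraries alone, which leave few degrees of freedom, 11 and 3. The LPS step minus the mock step had 57 and 34 with median-ratio rescaling, 16 lower with quantile normalization, and 0 and 0 with the compared groups alone. For 2 h minus 1 h, 53 were lower with median-ratio rescaling, 28 with quantile normalization, and the compared groups alone gave 29 and 0. For 6 h minus 4 h, a pseudocount of 5 gave 0 and 4, quantile normalization 0 and 0, the compared groups alone 0 and 0, and removal of length and GC trends 5 higher. For 6 h minus 1 h, median-ratio rescaling gave 496 and 452, quantile normalization 399 lower and the compared groups alone 597 lower. For LPS minus mock at 1 h, 40 were lower with a pseudocount of 5 and 79 with quantile normalization. For 12 h minus 6 h the compared groups alone gave 5 and 1. The causes were not tested.

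The labels do not say what equal replicate numbers share. Replicate differences at 2 h and 4 h of LPS had a correlation of 0.608 over genes, and 2 of 78 group pairs were under 0.1. Those 2 pairs were mock at 4 h with 0 h and with LPS at 9 h. All pairs with mock at 4 h lay at 0.05 to 0.328, and all other pairs at 0.408 or more. Mock at 4 h enters the mock step and the difference between the LPS and mock steps. The cause was not tested. With a replicate block the step had 186 and 542, the difference from mock 84 and 279, 2 h minus 1 h 148 and 303, 6 h minus 4 h 21 and 41, LPS minus mock at 1 h 352 and 192, and 12 h minus 6 h 298 and 269. The block called all 99 rises and 228 falls of the step, and also Rsad2 (adjusted p = 0.0111), Isg15 (0.0223) and Nlrp3 (0.00843).

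Without 1 library, the step had 32 to 65 and 85 to 165, the mock step 0 to 0, the difference 11 to 29 and 22 to 52, 2 h minus 1 h 39 to 110 and 19 to 100, and 6 h minus 4 h 0 to 0. For 6 h minus 1 h the range was 217 to 309 and 627 to 789, for LPS minus mock at 1 h 47 to 159 and 3 to 170, and for 12 h minus 6 h 68 to 92 and 30 to 64. The uncalled Il1b was 0.23 with median-ratio rescaling and −0.28 to 0.25 without 1 library, and the uncalled Irg1 −0.05 to 0.44. With 2 libraries a group and no read depth, a gene not called is not shown to be unchanged.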
